A study of Homo sapiens with 6 samples.

Results

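The genes described here were listed by name and not by a rule on their values, though with earlier results of these data known. They are 39 genes of the type I interferon response. Of these, 9 are signalling genes, which carry the interferon signal or act in inducing interferon. Another 5, called sensors here, sense viral nucleic acid or relay that signal, and 25 are effectors that interferon is known to induce. Each gene was represented by the probe set with a single gene symbol and the highest mean signal, and 38 of the 39 had one among the 19775 genes measured in this way. STAT2, a subunit of the interferon-activated transcription factor, is not analysed here. The arrays came from a study of the transcription factor ZFX in Jurkat, a T cell leukemia line, and K562, a line from chronic myeloid leukemia that expresses erythroid genes. In each line there was 1 control array, 1 array of cells with ZFX silenced by the lentiviral short hairpin RNA labelled 381 and 1 with the hairpin labelled 1012, 6 arrays in all. Infected cells were sorted by their fluorescence, and every array was hybridised with pooled RNA of 3 replicates. The labels call the control arrays normal cells, while the growth protocol describes a control hairpin vector, and which of these applies is not settled. If the controls carried no vector, silencing cannot be told apart from infection and sorting. No sample was labelled as treated with interferon or infected with a virus other than the vector.

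Type I interferons are secreted proteins that bind a receptor made of IFNAR1 and IFNAR2. The receptor's kinases JAK1 and TYK2 then activate a transcription factor that contains STAT2 and IRF9, which enters the nucleus and binds an interferon-stimulated response element in the promoters of its target genes. The products of these genes block viral entry, degrade viral RNA or stop translation, and cytosolic sensors such as RIGI, MDA5 (encoded by IFIH1) and CGAS start the response by inducing interferon through IRF3 and IRF7.

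The response element holds 2 copies of GAAA spaced by any 2 bases, GAAANNGAAA, and its presence in promoters was counted because the selection of the genes did not read any sequence. RefSeq promoters (GRCh38.p14, 250 bases before to 50 after a gene's start) were at hand for 29 of the 39 genes; IFNAR2, IRF3, IRF7, CGAS, STING1, MX2, OAS2, OASL, IFIT2 and USP18 had no entry. The core was found on either strand in 18 of the 29 (62.1%), against 4.38% of 27305 genes in the table. It was held by 17 of 20 effectors, by 1 of 3 sensors (IFIH1) and by 0 of 6 signalling genes. With the shorter GAAANNGA, which is contained in the first motif, these shares were 69.0% and 23.9%. A match is a description of the letters and not a site of binding. Of the genes with a core upstream of the start, those with the highest mean signal are shown, since they include genes with far lower (IFIT5, IFI6) and far higher (IFITM1, BST2) levels in K562; capitals mark the core, which in IFIT5 lies on the opposite strand and reads TTTC. IFITM1 is shown from chr11:313960-314039 (plus strand), ISG15 from chr1:1013350-1013439 (plus), BST2 from chr19:17405705-17405794 (minus), SAMD9 from chr7:93118066-93118155 (minus), IFI6 from chr1:27672236-27672325 (minus) and IFIT5 from chr10:89414509-89414567 (plus).
IFITM1: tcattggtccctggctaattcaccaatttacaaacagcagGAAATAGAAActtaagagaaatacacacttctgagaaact
ISG15: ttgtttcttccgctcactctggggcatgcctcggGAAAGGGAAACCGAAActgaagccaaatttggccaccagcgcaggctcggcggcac
BST2: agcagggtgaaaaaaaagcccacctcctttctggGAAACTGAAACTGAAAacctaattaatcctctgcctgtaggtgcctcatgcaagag
SAMD9: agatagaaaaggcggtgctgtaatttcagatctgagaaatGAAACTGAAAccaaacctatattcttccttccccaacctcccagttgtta
IFI6: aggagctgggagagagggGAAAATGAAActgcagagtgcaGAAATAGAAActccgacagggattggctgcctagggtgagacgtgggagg
IFIT5: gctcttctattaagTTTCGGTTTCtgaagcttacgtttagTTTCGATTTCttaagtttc

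The deposited signal, a linear intensity from the MAS5 algorithm, had a 2% trimmed mean of 500.1 on every array of the series. Scaling of the arrays in processing would give such equality by itself, so it does not show how alike they were. Arrays of 1 line correlated at 0.979 to 0.985. ZFX itself, by its probe set of highest mean signal, read 498 on the control array of Jurkat and 337 and 119 with hairpins 381 and 1012, and in K562 it read 719 against 236 and 289. A second ZFX probe set read 608 against 214 and 183 in Jurkat and 403 against 163 and 130 in K562. The remaining ZFX probe sets were also below control on every silenced array. All 8 T cell markers were measured and higher in Jurkat without overlap (summed signal 40079 to 43204 in Jurkat and 1123 to 1790 in K562). Of 6 measured erythroid markers 5 were higher in K562 (summed signal 40061 to 57574 against 309 to 396). Of 5 measured B cell and monocyte markers 1, LYZ, was higher in K562, where the summed signal was 1901 to 2266 against 223 to 245 in Jurkat. The median of 24 spike-in probe sets lay above the line's control array by 0.08 and 0.45 (log2) on the Jurkat arrays of hairpins 381 and 1012 and by 0.34 and 0.69 on the K562 arrays. For ACTB the signal at the 3' end over that at the 5' end was 9.27, 9.99 and 8.43 in Jurkat (control, 381, 1012). In K562 this ratio was 11.1, 8.61 and 7.54, and for GAPDH it was 1.15 to 1.36 over all arrays. The part of the spike-in shifts, within and between the lines, and of these ratios in the results was not tested.

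**Figure D1:**
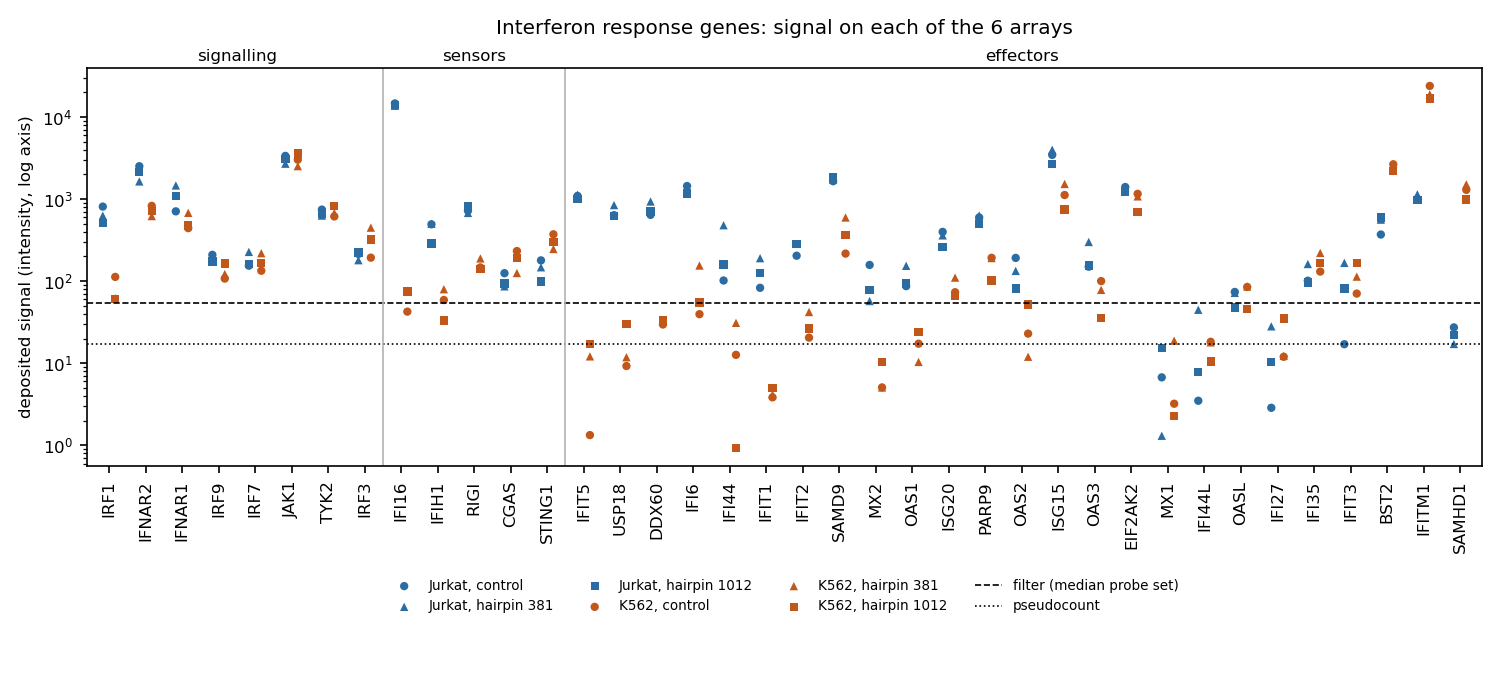
Signal of the 38 measured genes on each array, on a log axis, ordered by role and by the difference between the lines. Blue marks are Jurkat and orange marks K562, circles are control arrays, triangles hairpin 381 and squares hairpin 1012. The dashed line is the filter at a signal of 54.4 and the dotted line the pseudocount of 17. IFI16 and IFIT5 show wide gaps with Jurkat above, and IFITM1 and SAMHD1 show wide gaps with K562 above.

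The first comparison asked how the level of each gene differed between the lines. It used the 3 arrays of each line as replicates, so the error is the spread over control and silenced arrays of pooled RNA. Jurkat had the higher level of most of these genes: of 32 genes above the filter, 18 were lower in K562 (limma, adjusted p below 0.05) and 5 were higher, and 9 did not pass. Of all 11777 genes tested, 31.7% were lower and 27.3% were higher in K562. The median difference (log2, K562 minus Jurkat) was -1.41 over the 32 genes and -0.04 over all genes tested, and it was -1.21 between the control arrays alone, -1.38 between those of hairpin 381 and -1.36 between those of hairpin 1012. The filter kept genes with a mean log2 value above that of the median probe set, and a gene that is dim in 1 line passed only through its level in the other. With no filter 21 of the 38 measured genes were lower in K562 and 4 were higher, beside 19.9% and 18% of 19775 genes. The 3 Jurkat values lay entirely above the 3 K562 values for 23 of the 38 genes and entirely below for 5, beside 24.3% and 23.8% of all genes. In such bulk RNA, fewer cells that express a gene and less RNA of it per cell cannot be told apart.

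Among the genes of the signalling pathway, IRF1 and both receptor chains were lower in K562 by the probe sets used. The kinases and the other interferon regulatory factors did not pass. Values are given for each gene in the order control, hairpin 381 and hairpin 1012, as deposited signals. Differences are K562 minus Jurkat in log2(signal + 17). Their standard error is that of limma, which draws on the 3 arrays a line and on the spread of all genes tested. IRF1, a transcription factor that is itself induced by interferon, read 808, 627 and 507 in Jurkat and 113, 62.0 and 61.1 in K562. The difference was -2.81 ± 0.26 (SE, adjusted p = 7.03e-06), a 7.04-fold lower level in K562, and the lines did not overlap. IFNAR2, the receptor chain that binds interferon tightly, read 2506, 1637 and 2130.3 in Jurkat and 825, 619 and 709.8 in K562, a difference of -1.51 ± 0.19 (SE, adjusted p = 6.77e-05). IFNAR1, the other chain, read 707, 1460.5 and 1087 against 442, 678 and 476, a difference of -0.97 ± 0.27 (SE, adjusted p = 0.00985). By these probe sets every Jurkat array was above every K562 array for both chains, but the gap for IFNAR1 was small, between 678 and 707. The call for IFNAR1 also rested on the choice of probe set. Of its other probe sets above the filter 1 differed by -0.75 and the remaining ones by 0.49 and 0.01. The one at 0.49 had every K562 array (177, 206 and 232) above every Jurkat array (97.2, 173 and 164). With the mean of the IFNAR1 probe sets the difference was -0.31 (adjusted p = 0.198).

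No difference between the lines passed for the kinases. JAK1 had signals of 3349, 2690.2 and 3045 in Jurkat and 3013, 2511 and 3593 in K562, a difference of -0.0042 with a 95% interval of -0.36 to 0.35. TYK2 had 742, 628 and 662 and 613, 677 and 826, a difference of 0.05 with an interval of -0.34 to 0.44. For both kinases the values of the lines overlapped. IRF9, the DNA-binding subunit of the interferon-activated factor, read 209, 195 and 174 in Jurkat and 107, 122 and 164 in K562. Its Jurkat arrays were all above its K562 arrays, but the difference of -0.51 ± 0.23 (SE, adjusted p = 0.0732) did not pass. It did pass with the mean of probe sets (adjusted p = 0.0397), with no intensity trend (0.0399) and without the K562 array of hairpin 1012 (0.0327). IRF3, which is activated by phosphorylation downstream of the sensors, read 214, 179.7 and 223 against 193, 448 and 322, a difference of 0.53 ± 0.28 (SE, adjusted p = 0.127). IRF7, the factor that amplifies interferon production, read 154, 227 and 162 against 134, 218 and 165, a difference of -0.07 ± 0.25 (SE, adjusted p = 0.831). The lines overlapped for IRF3 and for IRF7, and neither passed, although IRF3 did without the K562 control array (0.84, adjusted p = 0.0126).

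The 5 sensors split between the lines: IFI16, IFIH1 and RIGI were lower in K562, and STING1 and CGAS were higher. IFI16, a nuclear DNA sensor, read 14566, 13655 and 13991 in Jurkat and 42.5, 76.7 and 74.4 in K562. This was the largest difference among the 32 genes tested, -7.46 ± 0.20 (SE, adjusted p = 1.50e-09), or 176-fold on the log2(signal + 17) scale. Its K562 values lay around the filter, and its other probe sets gave -6.94 and -7.51. RIGI, the cytosolic sensor of RNA with a triphosphate end, read 720.1, 676 and 817 against 147, 189 and 140.2, a difference of -2.11 ± 0.19 (SE, adjusted p = 5.03e-06). IFIH1, the sensor of long double-stranded RNA, read 492, 499 and 286 against 58.9, 79.7 and 33.1, a difference of -2.59 ± 0.31 (SE, adjusted p = 4.11e-05). For both RNA sensors the lowest Jurkat array was above the highest K562 array. CGAS, the enzyme that makes a cyclic dinucleotide on sensing DNA, read 125, 86.4 and 93.3 in Jurkat and 232, 125 and 193 in K562, a difference of 0.74 ± 0.27 (SE, adjusted p = 0.0375). STING1, the receptor of that dinucleotide, read 179, 147 and 99.2 against 372, 246 and 302, a difference of 1.04 ± 0.25 (SE, adjusted p = 0.00495). Both were brighter on every K562 array than on any Jurkat array, by a narrow margin for CGAS (124.9 in the brightest Jurkat array against 125.5). The CGAS call was lost without the filter (adjusted p = 0.0746) and without each of 4 of the 6 arrays, where the adjusted p was at most 0.132.

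**Figure D2:**
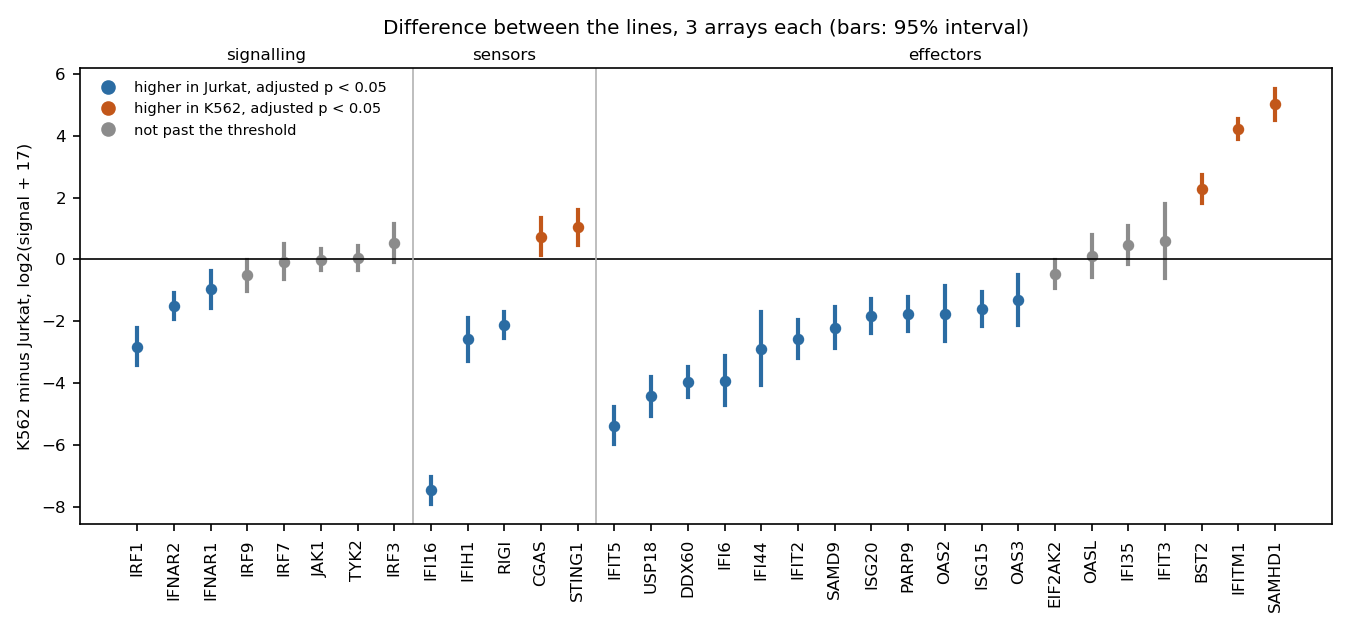
Difference between K562 and Jurkat in log2(signal + 17) for the 32 genes above the filter, with 95% intervals from limma over 3 arrays a line. Blue points are lower in K562 and orange points are higher at an adjusted p below 0.05, and grey points did not pass. IFI16 at -7.46 is the lowest and SAMHD1 at 5.02 the highest.

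Of the 19 effectors above the filter, 12 were lower in K562 and 3 were higher, beside 31.7% and 27.3% of all genes tested. The other 4 did not pass. Taking all 25 effectors by signal alone, 12 were below the filter signal of 54.4 on all 3 K562 arrays and 4 on all 3 Jurkat arrays, beside 34.3% and 36.6% of all 19775 genes. The IFIT proteins bind foreign RNA through its modified or missing cap, and their genes lie side by side on chromosome 10, IFIT2 next to IFIT3 and IFIT1 next to IFIT5. IFIT5 read 1090.0, 1127 and 1004 in Jurkat and 1.33, 12.1 and 17.1 in K562, a difference of -5.37 ± 0.26 (SE, adjusted p = 5.37e-08). IFIT2 read 204, 284 and 285 against 20.5, 42.1 and 26.4, a difference of -2.57 ± 0.27 (SE, adjusted p = 1.78e-05). IFIT1 read 82.9, 190.2 and 126 against 3.84, 4.16 and 5.00; it did not pass the filter, and in the fit without one it differed by -2.75 ± 0.33 (SE, adjusted p = 7.33e-05). All 3 were below the filter signal in K562, and each Jurkat array was above every K562 array. IFIT3 went otherwise, with 17.1, 167 and 81.3 in Jurkat and 70.5, 113 and 167 in K562. Its lines overlapped, and the difference of 0.59 ± 0.54 (SE, adjusted p = 0.372) had a 95% interval of -0.61 to 1.80.

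The oligoadenylate synthetases, which activate the RNA-degrading enzyme RNase L, lie in the order OAS1, OAS3, OAS2 on chromosome 12. OAS2 read 192, 133 and 81.2 in Jurkat and 22.9, 12.0 and 52.1 in K562, a difference of -1.75 ± 0.40 (SE, adjusted p = 0.00318). OAS3 read 149.7, 299.6 and 155 against 100.1, 78.2 and 35.2, a difference of -1.32 ± 0.36 (SE, adjusted p = 0.00959). OAS1, which did not pass the filter, read 86.9, 154 and 93.7 against 17.3, 10.4 and 24.0 and differed by -1.89 ± 0.32 (SE, adjusted p = 0.000828) in the fit without it. By these probe sets all 3 synthetases were lower in K562, with no overlap of the lines. A second OAS3 probe set had overlapping lines, with 94.2, 110.4 and 68.8 against 81.2, 67.1 and 19.0, and a difference of -0.68. The related OASL, which makes no oligoadenylate and acts with RIGI, read 73.8, 71.9 and 47.9 against 84.9, 86.0 and 45.9 and, with a difference of 0.11 ± 0.30 (SE, adjusted p = 0.774), did not pass. A second OASL probe set, which did not pass the filter, read 61.0, 109.4 and 42.5 against 58.2, 12.0 and 6.31. Its lines overlapped, with a difference of -1.18. From control it differed by 0.70 and -0.39 (hairpins 381 and 1012) in Jurkat and by -1.38 and -1.69 in K562.

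ISG15, USP18 and the exonuclease gene ISG20 were lower in K562. ISG15, a ubiquitin-like protein that is attached to other proteins, read 3443, 3977 and 2658 in Jurkat and 1118, 1525 and 745 in K562, a difference of -1.60 ± 0.25 (SE, adjusted p = 0.000287). USP18, which removes ISG15 and dampens signalling at IFNAR2, read 635, 843 and 617 against 9.25, 11.8 and 29.9, a difference of -4.43 ± 0.28 (SE, adjusted p = 3.27e-07). The Jurkat arrays of both genes were all above those of K562, and USP18 was below the filter signal on every K562 array. ISG20, an exonuclease that degrades RNA, read 398, 361 and 262 against 73.2, 110.4 and 67.0 and differed by -1.83 ± 0.25 (SE, adjusted p = 0.000113).

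DDX60, a helicase related to RIGI, read 641, 932 and 706 in Jurkat and 29.6, 32.7 and 33.4 in K562, a difference of -3.97 ± 0.22 (SE, adjusted p = 1.19e-07). IFI6, a small membrane protein, read 1438, 1391 and 1165 against 39.6, 155 and 54.7, a difference of -3.92 ± 0.36 (SE, adjusted p = 5.46e-06). SAMD9, a cytosolic protein that restricts poxviruses, read 1647, 1722 and 1859.9 against 216, 595 and 367, a difference of -2.21 ± 0.30 (SE, adjusted p = 9.51e-05). None of these 3 genes had overlapping lines, although their K562 values ranged widely for IFI6 (39.6 to 155) and SAMD9 (216 to 595). PARP9, which takes part in ADP-ribosylation with a ubiquitin ligase partner, read 596, 629.9 and 499 against 192, 191 and 102 and differed by -1.77 ± 0.25 (SE, adjusted p = 0.000138), though its second probe set differed by -0.21 only. IFI44 read 102, 479 and 159.8 against 12.6, 31.0 and 0.926, a difference of -2.89 ± 0.53 (SE, adjusted p = 0.000875). MX2, a dynamin-like GTPase that restricts retroviruses, read 157, 57.2 and 78.2 against 5.08, 5.07 and 10.4 and, not passing the filter, differed by -2.18 ± 0.36 (SE, adjusted p = 0.000698) in the fit without it. All 3 were brighter on each Jurkat array than on any K562 array. EIF2AK2, the kinase PKR that stops translation on sensing double-stranded RNA, read 1398, 1373 and 1228 in Jurkat and 1156, 1076 and 697 in K562. Its Jurkat arrays were all above its K562 arrays, but the difference of -0.47 ± 0.20 (SE, adjusted p = 0.0661) did not pass; it did with the arm as a block (adjusted p = 0.0191) and without the K562 control array (adjusted p = 0.037). IFI35, a cytosolic partner of NMI, read 101, 162 and 96.4 against 131, 220.3 and 165; its lines overlapped and the difference of 0.47 ± 0.27 (SE, adjusted p = 0.162) did not pass.

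The 3 effectors that were higher in K562 act at membranes or on nucleotides. IFITM1, a membrane protein that blocks fusion of viruses with the cell, read 1001, 1139 and 979.8 in Jurkat and 23791, 18762 and 16668 in K562, a difference of 4.21 ± 0.14 (SE, adjusted p = 5.29e-09) or 18.5-fold. Its value is uncertain in origin, because IFITM2 and IFITM3 are near-identical genes whose RNA may bind the same probes. SAMHD1, which degrades the deoxynucleotides that retroviruses need, read 27.3, 17.2 and 21.9 against 1292, 1507 and 990.1, a difference of 5.02 ± 0.23 (SE, adjusted p = 3.13e-08) or 32.4-fold. BST2, also called tetherin because it holds budding virus at the cell surface, read 369, 561 and 594 against 2645, 2668 and 2191, a difference of 2.29 ± 0.20 (SE, adjusted p = 4.21e-06) or 4.87-fold. For each of these genes the lowest K562 array was far above the highest Jurkat array, and SAMHD1 was below the filter signal on all Jurkat arrays. The remaining effectors MX1, IFI27 and IFI44L were below the filter signal on all 6 arrays, with signals from 1.31 to 44.8, and differed by -0.0020 to 0.28 in the fit without a filter (adjusted p = 0.622 to 0.998).

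The size of a difference to a dim level depended on the pseudocount: with one 4 times smaller or larger, IFIT5 differed by -6.43 or -3.87, USP18 by -5.16 or -3.17 and SAMHD1 by 5.58 or 3.87, all still past the threshold. Other probe sets of the same genes mostly gave the same side. Of 25 further probe sets above the filter, 22 lay on the same side of 0 as the one used, and 19 of these 25 belonged to 12 genes that passed, with 17 on the same side. The 2 that did not were both of IFNAR1. Several probe sets used (for RIGI, CGAS, IFI16, SAMHD1 and IFNAR2) are of a design that may also bind related transcripts. The other sets above the filter gave -2.53 and -1.98 for RIGI, 4.14, 4.25 and 3.19 for SAMHD1 and -2.50 and -2.83 for IFNAR2. CGAS had no other set above the filter. Its further sets read 0.69 to 12.1 over all arrays, had overlapping lines and differed by -0.007 and -0.04, so the CGAS call rests on the set used alone. Of the 18 listed genes with the response element core in the promoter 14 were tested. With a median of -1.80, 10 of them were lower and 2 higher in K562, beside 31.7% and 27.3% of all genes tested. Among the 14, IFIT5, DDX60 and IFI44 were dim on every K562 array and passed the filter only through Jurkat. IFIT1, MX1, IFI27 and IFI44L hold the core but did not pass the filter. In the fit without one, IFIT1 was lower in K562 and MX1, IFI27 and IFI44L did not pass. Of the listed genes without the core 9 were tested, and 4 were lower and 1 higher, with a median of -0.51. This split is a description, because the effectors were listed as interferon-induced genes. It is also a split by role: the tested genes with the core are effectors except IFIH1, and most of those without it are signalling genes.

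The second comparison asked whether the genes changed when ZFX was silenced, and none passed. With limma 0 of the 32 genes and 0 of all 11777 genes (0%) passed in Jurkat, in K562, in the average of the lines or in the difference between the lines. The smallest adjusted p over all genes was 0.998, 0.898, 0.615 and 1 in these contrasts. Before adjustment, p was below 0.05 for 3, 5, 4 and 0 of the 32 genes, and for 3.5%, 4.9%, 6.11% and 2.48% of all genes. The median of the 32 genes (log2, silenced minus control) was -0.08 in Jurkat and 0.12 in K562, against -0.02 over all genes in each line. By hairpin the medians were -0.0027 for 381 and -0.13 for 1012 in Jurkat, and 0.19 and 0.02 in K562. Both hairpins of a line share 1 control array, and the error comes from the difference between the hairpins, so the fit takes the spread of the unreplicated controls to be the same.

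Counted by sign, the genes lay on both sides of control. In Jurkat 9 of the 32 genes were above control with both hairpins and 14 below, beside 31.2% and 33.8% of all genes tested. In K562 14 were above and 8 below, beside 31.1% and 33.8%. A difference of at least 2-fold with both hairpins was seen in Jurkat for 1 gene above control, IFIT3, beside 0.518% of all genes, and for 0 below, beside 0.255%. In K562 it was seen for 0 genes above and 0 below, beside 0.552% and 0.586%. By role, the signalling genes were above control with both hairpins in 2 of 8 and below in 5 of 8 in Jurkat, and above in 5 and below in 2 in K562. Sensors were above in 0 of 5 and below in 3 of 5 in Jurkat, and above in 1 and below in 2 in K562. Effectors were above in 7 of 19 and below in 6 of 19 in Jurkat, and above in 8 and below in 4 in K562. In 4 of the 32 genes both hairpins were below control in Jurkat and above it in K562, and in 1 the reverse, beside 7.73% and 7.43% of all genes.

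**Figure D3:**
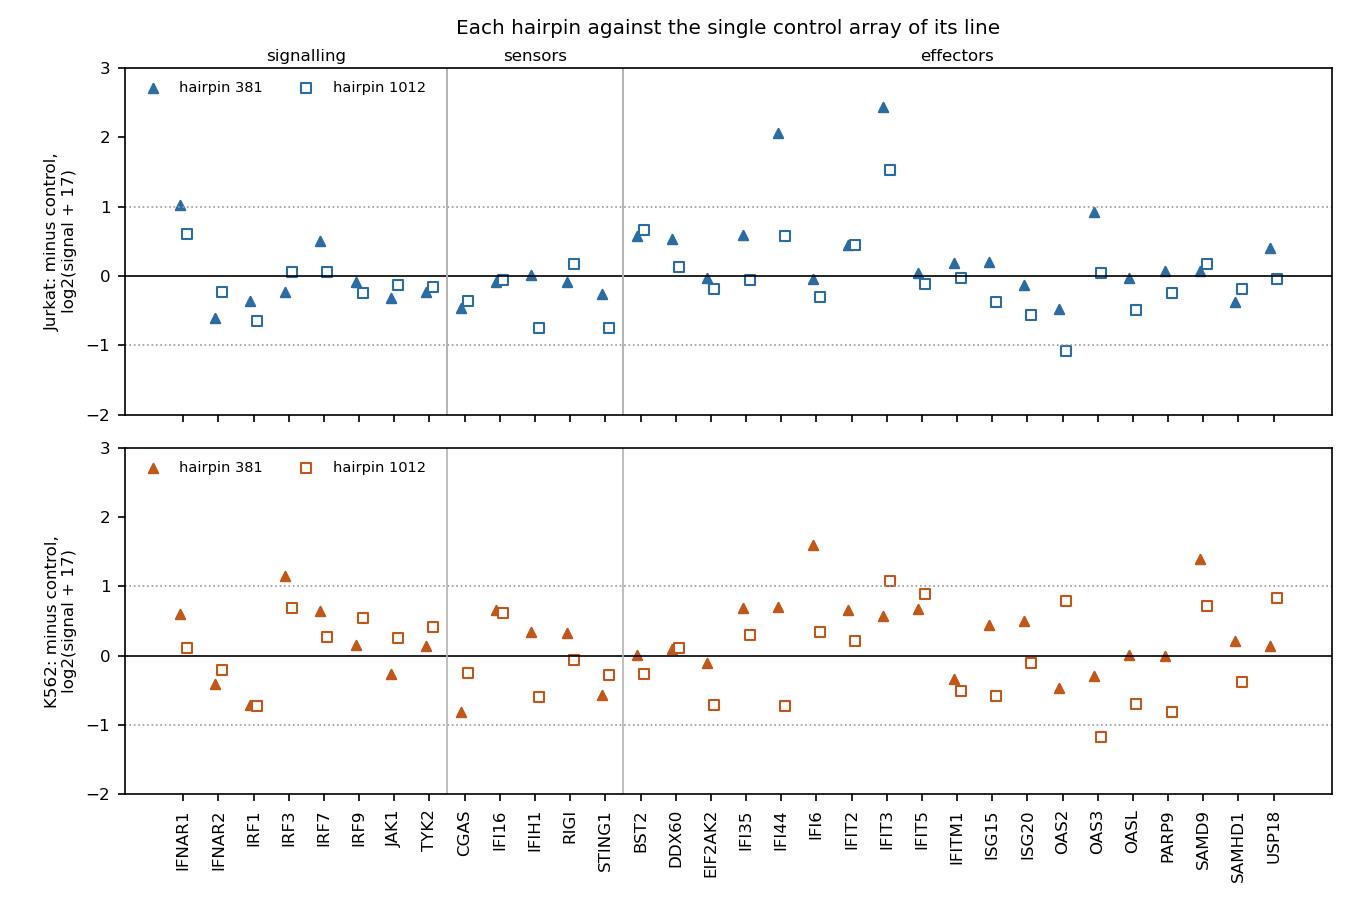
Difference of each silenced array to the control array of its line in log2(signal + 17) for the 32 genes above the filter, Jurkat in the upper and K562 in the lower panel. Filled triangles are hairpin 381 and open squares hairpin 1012, and dotted lines mark 2-fold. The points lie on both sides of 0, and IFIT3 in Jurkat is the only gene with both hairpins beyond 2-fold.

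On all 4 silenced arrays 6 genes were above their control, IFNAR1, IRF7, IFIT2, IFIT3, DDX60 and SAMD9, beside 12.7% of all genes, and 5 were below it, IFNAR2, IRF1, CGAS, STING1 and EIF2AK2, beside 15.1%. IFIT3 differed from control by 2.43 with hairpin 381 and 1.53 with hairpin 1012 in Jurkat and by 0.58 with hairpin 381 and 1.08 with hairpin 1012 in K562. Its mean over the lines was 1.40 ± 0.35 (SE, adjusted p = 0.776). In Jurkat the difference rested on a control signal of 17.1, close to the pseudocount. A second IFIT3 probe set, with nearly the same mean signal, read 67.0, 128 and 95.5 in Jurkat and 89.7, 101 and 135 in K562. It was above control on all 4 arrays too, by 0.78 and 0.42 in Jurkat and 0.15 and 0.51 in K562, all under 2-fold. With the probe set of highest mean log2 value, which is this one, the average was 0.47, and with pseudocounts 4 times smaller and larger it was 1.72 and 0.86.

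The receptor chains lay on opposite sides of control by the probe sets used. IFNAR1 differed from control by 1.03 with hairpin 381 and 0.61 with hairpin 1012 in Jurkat and by 0.60 with hairpin 381 and 0.10 with hairpin 1012 in K562, with an average of 0.59 ± 0.23 (SE, adjusted p = 0.776). Of its other probe sets, 1 gave 0.73 and 0.55 in Jurkat and 0.42 and 0.32 in K562, another gave 0.73 and 0.67 in Jurkat and 0.20 and 0.36 in K562, and the last gave -0.03 and -0.65 in Jurkat and 0.19 and -0.57 in K562. IFNAR2 differed by -0.61 with hairpin 381 and -0.23 with hairpin 1012 in Jurkat and by -0.40 with hairpin 381 and -0.21 with hairpin 1012 in K562, with an average of -0.36 ± 0.19 (SE, adjusted p = 0.808). The other IFNAR2 probe sets gave -0.66 and 0.11 in Jurkat with -0.85 and -0.24 in K562, and -0.59 and -0.02 in Jurkat with -0.41 and 0.36 in K562. On all 4 silenced arrays IFNAR1 was above control with 3 of its 4 probe sets, and IFNAR2 was below it with 1 of 3. IRF1 differed by -0.36 with hairpin 381 and -0.66 with hairpin 1012 in Jurkat and by -0.71 with hairpin 381 and -0.73 with hairpin 1012 in K562, with an average of -0.61 ± 0.22 (SE, adjusted p = 0.776). All 4 IRF1 differences were negative, and so were those of its second probe set, at -0.13 and -0.09 in Jurkat and -0.64 and -0.04 in K562. SAMD9, whose differences were near 0 in Jurkat, differed by 0.06 with hairpin 381 and 0.17 with hairpin 1012 in Jurkat and by 1.39 with hairpin 381 and 0.72 with hairpin 1012 in K562 and had an average of 0.59 ± 0.23 (SE, adjusted p = 0.776). Its K562 contrast was 1.05 ± 0.33 (SE, adjusted p = 0.898), and a second probe set gave -0.15 and 0.25 in Jurkat and 0.77 and 0.21 in K562. The remaining genes on 1 side of control differed by 0.06 to 0.64 for IRF7, 0.21 to 0.65 for IFIT2 and 0.09 to 0.53 for DDX60 above control, and by -0.81 to -0.25 for CGAS, -0.75 to -0.25 for STING1 and -0.72 to -0.03 for EIF2AK2 below it. For STING1 and EIF2AK2 other probe sets did not keep that side in Jurkat. The second STING1 probe set gave 0.41 and 0.0003 in Jurkat and -0.29 and -0.69 in K562. The other EIF2AK2 probe sets gave 0.03 and 0.03 in Jurkat with -0.0098 and -0.07 in K562, and 0.71 and 0.65 in Jurkat with -0.44 and -0.12 in K562. Further probe sets of IFIT2 and CGAS, none of which passed the filter, did not keep the side either. The IFIT2 set gave 0.56 and 0.30 in Jurkat and 0.06 and -0.76 in K562. The CGAS sets gave 0.01 and 0.19 in Jurkat with 0.72 and 0.67 in K562, and 0.09 and 0.37 in Jurkat with -0.29 and -0.05 in K562.

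**Figure D4:**
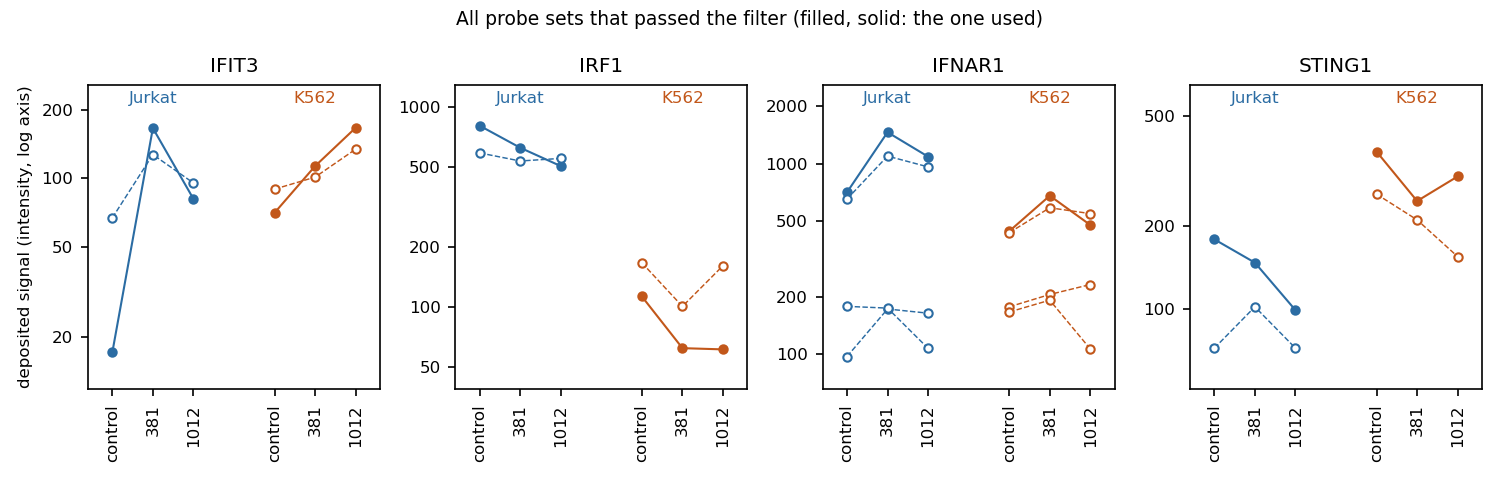
Signal on a log axis of every probe set above the filter for IFIT3, IRF1, IFNAR1 and STING1, on the control, hairpin 381 and hairpin 1012 arrays of Jurkat (blue) and K562 (orange). Filled points joined by solid lines are the probe set used, and open points joined by dashed lines are the others. The IFIT3 control value of 17.1 in Jurkat is not shared by the second probe set, which reads 67.0 there.

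Some genes stood away from control in 1 line. In Jurkat, IFI44 differed by 2.06 with hairpin 381 and 0.57 with hairpin 1012 and OAS2 by -0.47 with hairpin 381 and -1.09 with hairpin 1012, while BST2 differed by 0.58 with hairpin 381 and 0.66 with hairpin 1012. By these probe sets IFI44 was more than 2-fold above control with hairpin 381 alone, and OAS2 more than 2-fold below with hairpin 1012 alone. Their other probe sets, none of which passed the filter, stayed under 2-fold in Jurkat. With hairpins 381 and 1012 these gave 0.38 and 0.24 for IFI44, and 0.16 and -0.17 or -0.12 and -0.28 for OAS2. In K562, IRF3 differed by 1.15 with hairpin 381 and 0.69 with hairpin 1012, IFI16 by 0.66 with hairpin 381 and 0.62 with hairpin 1012 and IFIT5 by 0.67 with hairpin 381 and 0.90 with hairpin 1012. The IFI16 and IFIT5 values concern signals below or near the filter. In K562 a second IFIT5 probe set gave 0.17 and 0.37, and the other IFI16 probe sets gave 0.65 and 0.41, and 0.42 and 1.65. ISG15, a broad reporter of the response, differed by 0.21 with hairpin 381 and -0.37 with hairpin 1012 in Jurkat and 0.44 with hairpin 381 and -0.57 with hairpin 1012 in K562, so it was above control with hairpin 381 and below with hairpin 1012 in each line. The contrasts between the lines that were furthest from 0 by p were 1.00 ± 0.47 (SE, adjusted p = 1) for IRF3, 0.71 ± 0.34 (SE, adjusted p = 1) for IFI16 and -0.75 ± 0.36 (SE, adjusted p = 1) for BST2, and none passed.

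Other genes of the pathway were taken from lists of its ligands, adaptors, regulators and further effectors. Of 16 interferon ligand genes 15 were measured and 0 passed the filter, so no ligand level was tested. Of 8 tested adaptors and cofactors of the sensors 5 were lower and 1 was higher in K562, of 11 regulators 6 were lower and 2 higher, and of 33 further effectors 19 were lower and 5 higher. Of all 11777 genes tested, 31.7% were lower and 27.3% higher in K562. HERC5, the ligase that attaches ISG15, read 3042, 2889 and 2623 in Jurkat and 29.3, 1.90 and 3.29 in K562, a difference of -6.78 ± 0.32 (SE, adjusted p = 4.05e-08). RSAD2, the antiviral enzyme viperin, read 1101, 1159 and 1003 against 40.9, 48.0 and 61.6, a difference of -4.05 ± 0.20 (SE, adjusted p = 5.17e-08). GBP1, a GTPase that attacks intracellular pathogens, read 479.6, 615 and 808 against 21.3, 13.2 and 12.5, a difference of -4.29 ± 0.26 (SE, adjusted p = 2.50e-07). These 3 were low on every K562 array. Higher in K562 were IFITM3, with 366, 475 and 539.7 against 7128, 6733 and 4796 and a difference of 3.70 ± 0.20 (SE, adjusted p = 1.06e-07), and IFITM2, with 943, 984 and 735 against 6487, 5678 and 4352 and a difference of 2.60 ± 0.18 (SE, adjusted p = 7.58e-07). SOCS3, an inhibitor of JAK kinases, was higher too, with 47.6, 27.4 and 54.3 against 1014, 976 and 516 and a difference of 3.79 ± 0.30 (SE, adjusted p = 1.90e-06). The IFITM genes were thus all brighter in K562, with the reservation on shared probes given for IFITM1.

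On silencing, 0 of these other pathway genes passed in either line, in the average or in the difference between the lines. The ones with the smallest p above control in the average were NMI, a partner of IFI35, with 0.53 ± 0.14 (SE, adjusted p = 0.776), APOBEC3G, a cytidine deaminase that restricts retroviruses, with 0.61 ± 0.20 (SE, adjusted p = 0.776), and SP110, a nuclear body protein, with 0.47 ± 0.23 (SE, adjusted p = 0.808). NMI read 4696, 6721 and 5289 in Jurkat and 5229.8, 8121 and 8995 in K562, above control on all 4 silenced arrays. APOBEC3G read 142, 139.9 and 141 in Jurkat and 294, 721 and 716 in K562, so its silenced arrays stood apart from control in K562 and lay within 2 signal units of it in Jurkat. SP110 read 1564, 1838 and 1852 and 429, 917 and 552. Below control were HERC5 with -0.69 ± 0.21 (SE, adjusted p = 0.776), XAF1, a promoter of apoptosis, with -0.67 ± 0.33 (SE, adjusted p = 0.808), and TRAF3, an adaptor of interferon induction, with -0.35 ± 0.18 (SE, adjusted p = 0.808). XAF1 read 1824, 2629.9 and 1471 in Jurkat and 65.5, 5.29 and 23.5 in K562, and TRAF3 read 2773, 2336 and 2869 and 1082, 761 and 653. In Jurkat XAF1 and TRAF3 were above control with 1 hairpin and below with the other, and the K562 values of HERC5 and XAF1 were below or near the filter.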

How the data were processed

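Per the submitters' processing notes the deposited intensities, 1 linear signal per probe set and array, were made with MAS5 (version not given in the sources used here). No detection calls were used. Of 54675 probe sets, 41091 had 1 symbol in the platform annotation, 1801 had several, 11721 had none and 62 were array controls. Signals were analysed as log2(signal + 17), which understates the change of dim genes. Genes were tested where the mean log2 value exceeded the median of all probe sets (signal 54.4).

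Tests were two-sided in limma 3.58.1 (R 4.3.3) with an intensity trend and Benjamini-Hochberg adjustment over 11777 genes at a threshold of 0.05. The lines were compared as 2 groups of 3 arrays (an exact permutation test could not go below 0.1), and silencing was tested in a fit of 4 groups with 2 residual degrees of freedom. Each array is a pool, so p-values measure the spread between arrays of different arms, not between cultures. Hairpin labels pair arrays across lines: deviations of same-labelled arrays correlated at 0.205, 0.211 and 0.216.

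The genes, lists and tests were chosen with earlier results of these data known. All listed genes are accounted for, with each array's value for those above the filter signal on at least 1 array; of the other pathway genes, the 3 with the smallest p in each direction between the lines and on average silencing are named.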

Additional observations from a re-analysis of the deposited data

Results flagged for a closer look

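For 8 of the genes named above, both silenced arrays of Jurkat lay on 1 side of control and both of K562 on the other. Of these, 5 are among the 32 listed genes tested. They were 4 below control in Jurkat and above it in K562 and 1 the reverse, beside 7.73% and 7.43% of all genes. The others had been named for a small p in other contrasts, and other pathway genes that were not named did so too. The effect of silencing in K562 minus that in Jurkat (log2, limma) was 0.48 ± 0.38 (SE) for TYK2, 0.52 ± 0.49 for IRF9, 0.71 ± 0.34 for IFI16 and 1.15 ± 0.68 for IFI6, each below control in Jurkat and above it in K562. It was -1.21 ± 0.73 for OAS3, above control in Jurkat and below it in K562. Among the named other pathway genes it was 1.26 ± 0.40 for APOBEC3G, -0.90 ± 0.51 for GBP1 and -0.78 ± 0.39 for IFITM3. The adjusted p of each was 1, so none of these differences passed. IFI16 and IFI6 had K562 signals near the filter, GBP1 had K562 signals below it, and the APOBEC3G values in Jurkat were within 0.02 of control.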

How the results depend on the processing

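Between the lines, 21 of the 23 genes called kept the call in every one of 17 alternative settings in which they were tested, and the exceptions were CGAS and IFNAR1, as given above. With the replicate block for the arm (control, 381, 1012), 7656 genes passed and 19 of the listed genes were lower and 5 higher in K562, EIF2AK2 gaining a call, and no other call changed with the block. IRF9 and IRF3 gained a call in other settings, as given above. A filter at the 75th percentile left 12 of the listed genes and 4493 calls; 7 were then lower and 2 higher in K562 with a median of -1.24, and 3 and 6 were above and below control with both hairpins in Jurkat and 5 and 3 in K562. The median was -0.995 with a pseudocount 4 times larger and -0.752 with the mean of probe sets, where 9 were below control in Jurkat. IFIT3 was no longer 2-fold above control with both Jurkat hairpins (0 genes) with the larger pseudocount, the stricter filter, the mean of probe sets or the probe set of highest mean log2 value, and with the smaller pseudocount 1 gene was so in K562. Uncalled differences between the lines that changed sign were JAK1, 0.0613 with the mean of probe sets and 3.34e-05 with quantile normalization, IRF7, 0.00599 with cyclic loess and 0.0365 with quantile normalization, and TYK2, -0.0311 in the 4-group fit. The causes were not tested.

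Leaving out each array in turn, the median between the lines was -1.59 to -1.16, TYK2 differed by -0.0683 to 0.142, IRF7 by -0.236 to 0.0921, OASL by -0.0453 to 0.346, JAK1 by -0.132 to 0.125 and IFIT3 by -0.0686 to 1.15. The median difference between the lines in silencing was -0.0612 to 0.239, and 0 to 2 genes passed in the average of the lines, the 2 only without the K562 array of hairpin 381 and neither of them listed here. With 1 control array a line and 6 arrays in all, precision is limited by how few arrays there are.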
